A study of Mus musculus with 38 samples.

Results

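The 39 Hox genes were those whose symbol was Hoxa, Hoxb, Hoxc or Hoxd followed by a number, out of 25965 genes in the RNA table. All 39 were also among the 25888 genes with a promoter window in the chromatin table. The Hoxa cluster held 11 of them, Hoxb 10, Hoxc 9 and Hoxd 9. They were measured in neural stem/progenitor cells (NSPCs), cultured as free-floating neurospheres from the subventricular zone (SVZ) of male mice, so that each library is a culture and not fresh tissue. Young adult NSPCs came from mice of 3 months and aged NSPCs from mice of 18 months, of the strain C57BL/6JBabr, with 3 derivations per age that each combined the tissue of several mice. The mice were not described as carrying any transgene or as having received any treatment. RNA was also sequenced from 1 young and 1 aged culture of C57BL/10 mice kept in a separate facility, in which strain and facility cannot be told apart. The same C57BL/6JBabr derivations were profiled for H3K27me3, H3K4me3, 5-methylcytosine (5mC) and 5-hydroxymethylcytosine (5hmC).

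Hox genes encode homeodomain transcription factors that lie in 4 compact clusters and give the body axis its positional identity. They are numbered by paralog group, and in the embryo low-numbered genes are active further forward than high-numbered ones. Hox genes are used in the hindbrain and spinal cord, whereas the forebrain, where the SVZ lies, forms in front of their territory. In cells that do not use them, Polycomb repressive complex 2 (PRC2) places H3K27me3 over whole clusters and PRC1 binds that mark, while the MLL complexes place H3K4me3 and oppose Polycomb. Their CpG-rich DNA is usually kept free of 5mC.

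Promoter sequences of 4 Hox genes are shown because they carry the extremes of the marks described later. They run 5′ to 3′ on the gene's strand, from 250 bases before to 50 bases after the RefSeq start site (GRCm38.p6), and every CpG, the site where 5mC is read, is in capitals. Hoxa5 (chr6:52204538-52204837, minus strand) and Hoxa9 (chr6:52227321-52227620, minus strand) were 2 of the 3 Hox genes with the most H3K27me3. The stretches shown hold 29 and 4 CpGs, and the 5001-base windows in which H3K27me3 was measured 245 and 198. Hoxb1 (chr11:96365508-96365807, plus strand, 10 CpGs) had the least of both histone marks, and Hoxd1 (chr2:74762730-74763029, plus strand, 29 CpGs) had the most 5mC over its wider window.
Hoxa5: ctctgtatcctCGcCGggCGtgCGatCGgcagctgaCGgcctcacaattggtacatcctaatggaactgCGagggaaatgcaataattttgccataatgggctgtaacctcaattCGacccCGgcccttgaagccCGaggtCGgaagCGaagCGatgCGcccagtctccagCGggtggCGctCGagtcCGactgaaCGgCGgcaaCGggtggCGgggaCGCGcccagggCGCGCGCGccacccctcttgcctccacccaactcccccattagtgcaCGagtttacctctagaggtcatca
Hoxa9: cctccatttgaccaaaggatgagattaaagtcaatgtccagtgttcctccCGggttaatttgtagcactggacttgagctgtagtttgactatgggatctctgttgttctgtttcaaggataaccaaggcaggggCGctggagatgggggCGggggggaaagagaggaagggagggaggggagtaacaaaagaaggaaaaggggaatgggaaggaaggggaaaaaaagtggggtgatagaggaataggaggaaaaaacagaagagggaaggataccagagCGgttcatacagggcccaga
Hoxb1: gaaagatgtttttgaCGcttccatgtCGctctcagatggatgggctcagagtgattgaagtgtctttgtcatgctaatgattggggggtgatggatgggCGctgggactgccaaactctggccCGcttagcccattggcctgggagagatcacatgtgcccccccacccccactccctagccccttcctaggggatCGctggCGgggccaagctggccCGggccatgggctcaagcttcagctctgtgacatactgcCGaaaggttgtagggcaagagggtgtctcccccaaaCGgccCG
Hoxd1: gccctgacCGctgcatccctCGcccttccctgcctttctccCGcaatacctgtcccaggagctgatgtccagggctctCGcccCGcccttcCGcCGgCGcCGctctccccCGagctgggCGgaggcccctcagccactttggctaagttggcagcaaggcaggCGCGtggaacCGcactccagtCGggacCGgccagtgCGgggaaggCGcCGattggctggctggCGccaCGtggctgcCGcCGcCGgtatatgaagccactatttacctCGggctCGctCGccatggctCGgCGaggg

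RefSeq promoters were given for 22 of the 39 genes, 24 sequences in all. They held between 4 CpGs (Hoxa9, Hoxd4 and the first of the Hoxd11 promoters) and 45 (Hoxa13), and 45.8% of them held 20 or more, against 26.5% of the 32851 promoters of the same length in the table. Within these short stretches 68 of 2127 calls (3.20%) were methylated over the 6 oxBS libraries. At the Hoxd1 promoter 2 of 178 calls were methylated (1.12%, with a 95% Wilson interval reaching up to 4.00%), so the higher 5mC of its wider window lay outside the stretch shown. The interval covers counting error only.

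Hox RNA was almost undetectable at both ages and in both strains. Of 39 genes, 32 had no read in any of the 8 libraries, and the other 7 had 1 read each in 1 library. The young replicate 3 library held 1 read of Hoxa9, Hoxb6 and Hoxd10. The aged replicate 1 library held 1 read of Hoxa7 and Hoxa10, and the aged replicate 2 library 1 read of Hoxa5 and Hoxd8. Both C57BL/10 libraries held none. Young and aged C57BL/6JBabr libraries thus had 3 and 4 Hox reads in all, and no Hox gene stood out at either age.

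Having no read in any of these libraries was shared by 23% of all genes in the table (5965). It was rare for genes with an active promoter mark: of 9049 genes with a young H3K4me3 level above 5 (log2 RPM, reads scaled to the size of the library), 37 had no read. A count of 0 allows up to 3 reads, which corresponded to between 0.0731 and 0.177 RPM in a single C57BL/6JBabr library. Per kilobase of exon (RPKM, RPM per kilobase), 3 reads over the 6 C57BL/6JBabr libraries gave limits of 0.00445 to 0.0179 RPKM. These were computed for the 38 Hox genes with an annotated length and hold for those with no read. For the 7 genes with 1 read the limit lies higher. Low expression below these limits was not detectable at this depth. The library preparation did not mark strand, so reads of overlapping genes and antisense RNAs within the clusters could not have been told apart.

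Many of the listed genes around the clusters were expressed in the same libraries, but the nearest of the list were mostly silent. Of 22 neighbours in the table, at 8.45 (Evx2) to 910 kb (Nfe2l2) from a cluster, 16 passed the filter on low values, with RPKM of 2.63 (Smug1, a DNA repair glycosylase) to 146 (Hnrnpa1, an RNA-binding protein) over the 6 C57BL/6JBabr libraries. In the C57BL/10 libraries, young and aged, Hnrnpa1 had 264 and 285 reads, against 4513 to 12849 in the C57BL/6JBabr libraries, and Atp5g2 3 and 7, against 1233 to 3142, while the other 14 had at least 247. Among these 22 listed neighbours, the nearest expressed gene of each cluster was Mtx2 for Hoxd, at 60.7 kb, and Smug1 for Hoxc, at 116 kb. For Hoxa it was Skap2 at 143 kb and for Hoxb Snx11 at 399 kb. Genes outside the list were not looked up by position, so closer expressed genes may exist. Evx1 and Evx2, homeobox genes beside the Hoxa and Hoxd clusters, had no read. Of 10 noncoding RNAs of the clusters, only Hotairm1 had any, a single read. Skap1, Ttll6 and Calcoco2, within 96.3 kb of the Hoxb cluster, also had no read.

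**Figure D1:**
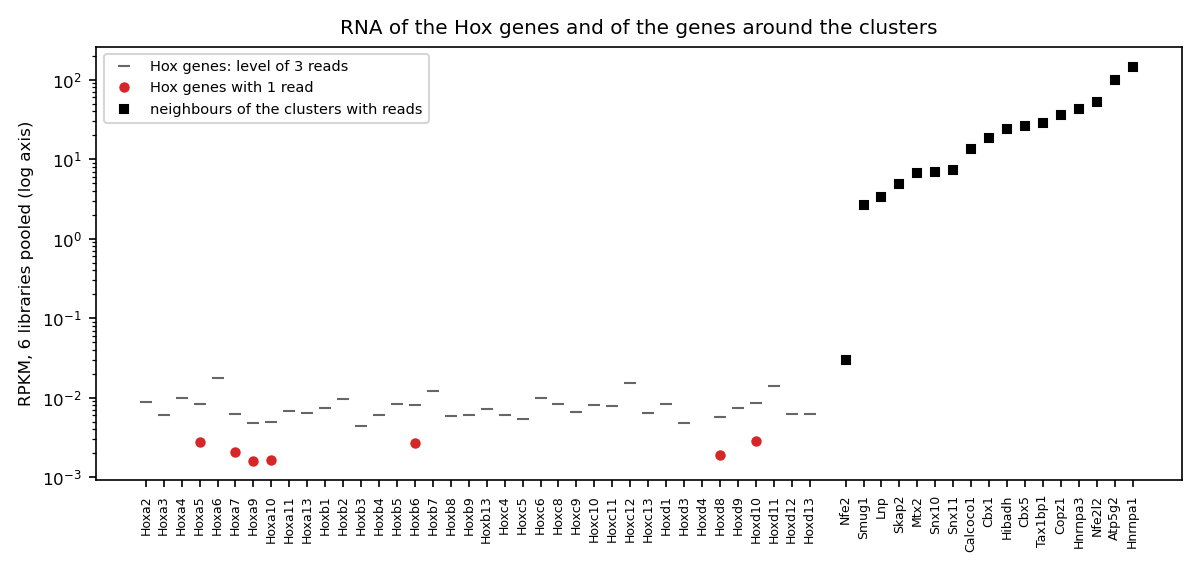
RNA level of Hox genes and of the neighbours with reads, in RPKM (log axis), with the 6 C57BL/6JBabr libraries pooled. Dashes give the level of 3 reads for Hox genes with an annotated length and red points the 7 Hox genes with 1 read, all below 0.0179 RPKM, whereas the neighbours that passed the filter (squares) lie between 2.63 and 146 RPKM and Nfe2 lies between the groups.

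No Hox gene could be tested between ages, as none reached the mean of -2 log2 RPM set for the limma fit. Over all 14858 genes tested, limma called 0% at an adjusted p below 0.05 (0 genes, with 258 at an unadjusted p below 0.05), edgeR 0 and DESeq2 4. Pairing libraries by replicate number gave 74 calls (0.498%). With no filter on low values all 39 Hox genes entered and none was called. Their values there were set almost wholly by the floor for genes without reads and by library size, so that fit could not show a difference.

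The machinery that writes and reads these marks was expressed at both ages, and none of its genes was called. For PRC2, 8 of 11 genes had a higher mean in aged NSPCs and 3 a lower one, with a median log2 fold change of 0.05, against 0.0015 over all genes tested, of which 50.6% had a higher aged mean. Jarid2, which helps recruit PRC2, measured 4.34 ± 0.13 log2 RPM in young and 4.69 ± 0.11 in aged NSPCs (SD, n = 3), the highest difference of the list (0.35 ± 0.11 as log2 fold change with SE, as for the genes below; limma adjusted p = 1.00, and 0.088 with pairing). Mtf2, which also helps recruit PRC2, differed by 0.19 ± 0.15, and Phf1 and Phf19, of the same Polycomb-like family, by -0.20 ± 0.14 and -0.08 ± 0.13. The catalytic subunit Ezh2 measured 5.72 ± 0.23 in young and 5.81 ± 0.19 in aged NSPCs. For PRC1, 16 of 19 genes had a higher mean in aged NSPCs, with a median of 0.04. Cbx2, a reader of H3K27me3, differed by 0.31 ± 0.16 and Cbx8, another reader, by 0.17 ± 0.11, while Pcgf1 and Yaf2, subunits of variant complexes, differed by -0.05 ± 0.19 and -0.05 ± 0.08.

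In a list of MLL-complex genes, H3K27 demethylases and Ash1l, 10 of 12 had a higher mean in aged NSPCs, with a median of 0.07. Kdm6b, an H3K27 demethylase, differed by 0.17 ± 0.085 and the methyltransferase Kmt2d by 0.16 ± 0.14, whereas Dpy30, a core subunit, differed by -0.12 ± 0.11 and Kmt2b by -0.0024 ± 0.09. The TALE homeodomain proteins bind DNA together with Hox proteins. All 9 of them were expressed, 7 with a higher aged mean, and their median was 0.11. Meis1 differed by 0.26 ± 0.11 and Meis3 by 0.16 ± 0.13, while Pbx2 differed by -0.05 ± 0.12. Thus these NSPCs held RNA for Hox cofactors in the near absence of Hox RNA.

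Retinoic acid induces Hox genes in the embryo. Of 18 genes of this pathway and its targets, 10 passed the filter, with a median of 0.05 and none called. The receptors Rxra and Rarb differed by 0.18 ± 0.12 and 0.10 ± 0.15, and the enzyme Aldh1a1 and the homeobox gene Gbx2 by -0.35 ± 0.56 and -0.33 ± 0.73. Cdx1, Cdx2 and Cdx4, homeobox activators of Hox genes in the embryonic trunk, had no read. Of the 16 neighbours tested, 7 had a higher aged mean and the median was -0.0047. Smug1 and Skap2 differed by 0.12 ± 0.11 and 0.11 ± 0.10, and Nfe2l2 and Atp5g2 by -0.19 ± 0.11 and -0.09 ± 0.10.

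Most transcription factors of the forebrain, in contrast, had RNA. Of 15 such genes, 11 passed the filter, with a median of -0.02. Emx1, Nkx2-1 and Gsx2 had 11, 12 and 7 reads over the 8 libraries and Dlx5 none. Gsx1, a homeobox gene of the ventral forebrain, measured 2.10, 2.97 and 2.15 log2 RPM in young and 3.08, 3.45 and 2.73 in aged NSPCs, so that the groups overlapped. It differed by 0.68 ± 0.27 (limma adjusted p = 1.00) and was the only gene of these lists called with pairing (adjusted p = 0.043). Six3 differed by 0.30 ± 0.14, Dlx2 by -0.79 ± 0.46 and Otx2 by -0.78 ± 0.28, none of them called. The NSPC markers were expressed, with 10 of 10 passing the filter. Of 8 markers of spinal cord and hindbrain, 2 passed, Egr2 among them, and 2 had no read, Lhx1 among them. Their summed level was 27.3 to 49.5 RPM in young and 29.2 to 46.6 RPM in aged C57BL/6JBabr libraries and 41.4 and 80.6 RPM in the young and aged C57BL/10 library, and Egr2 alone had 9046 reads over the 8 libraries. Markers of blood and microglia summed to 7.55 to 11.1 RPM over the C57BL/6JBabr libraries. Of these 7 genes, Csf1r and Cd68 passed the filter with 1408 and 866 reads over the 8 libraries, and Ptprc and Tyrobp had none. The part of other cell types in the results was not tested.

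H3K27me3 covered every Hox promoter at both ages. Levels were the authors' single value per age over 5001 bases centred on the start site, so no error could be given and no test was possible. The Hox windows had a median of 6.31 log2 RPM in young and 6.43 in aged NSPCs, against 0.413 and 0.372 over all gene windows. All 39 ranked within the top 2% of 25888 windows at both ages, and 35 within the top 1% in young NSPCs and 36 in aged. The matched Input, which controls for DNA recovery, was 1.20 in young Hox windows and 0.9304 over all genes, so H3K27me3 exceeded Input by 4.33 to 5.48 log2 units in young Hox windows. Of the 39 windows, 10 overlapped another Hox window and shared reads with it.

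Hoxa7, Hoxa5 and Hoxa9 had the highest H3K27me3 in young NSPCs. Hoxa7 measured 6.62 in young and 6.72 in aged NSPCs, Hoxa5 6.60 and 6.72, and Hoxa9 6.56 and 6.70 log2 RPM. Their levels differed from each other by less than 0.1 log2 unit. Hoxb1, the group 1 gene of the Hoxb cluster that is used in the hindbrain, had the lowest value, 5.35 in young and 5.34 in aged NSPCs. Hoxd3 followed with 5.82 and 5.87 and Hoxd8 with 5.82 and 5.90. These ranks hold for the chosen start sites. The other Hoxd3 start sites measured 6.28 (Hoxd3-007) to 6.52 (Hoxd3-004) in young NSPCs, and Hoxb3-002 measured 5.79, against 6.18 for Hoxb3-001. By cluster, the young medians ran from 6.14 (Hoxb) through 6.32 (Hoxc) and 6.37 (Hoxd) to 6.47 (Hoxa).

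H3K4me3 was low but present at most Hox promoters. The median was 2.71 log2 RPM in young and 2.67 in aged Hox windows, below the 3.64 and 3.73 of all windows, and 37 of 39 lay under that median at each age. H3K4me3 exceeded Input by at least 1 log2 unit in 35 Hox windows of young NSPCs and in 34 of aged. The share of all windows that did so was not computed. Their young medians were 3.64 for H3K4me3 and 0.93 for Input, so the count does not set Hox promoters apart. Hoxa5, with 3.73 in young and 3.84 in aged NSPCs, and Hoxa4, with 3.39 and 3.31, were among the 3 highest in young NSPCs. In aged NSPCs Hoxc5, with 3.42, lay above Hoxa4. Hoxb1 was lowest with 1.19 and 1.35, near its Input of 1.02 and 1.07. Hoxb2 with 1.94 and 1.91 and Hoxc4 with 2.04 and 1.61 were also among the 3 lowest, Hoxb2 below Hoxc4 in young and above it in aged NSPCs.

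Several genes had a further start site with more H3K4me3 than the one chosen. The windows of the Hoxa7-002 and Hoxa7-005 transcripts measured 4.12 and 4.28 log2 RPM in young NSPCs, against 3.06 for Hoxa7-001. Hoxc6-002 and Hoxc6-003 measured 3.69 and 3.70, against 2.43 for Hoxc6-001. H3K27me3 of these 6 windows stayed between 6.20 and 6.62. Across the 39 windows of young NSPCs, H3K27me3 and H3K4me3 had a Spearman correlation of 0.45 (Pearson 0.52), a description over windows that share libraries and DNA recovery.

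**Figure D2:**
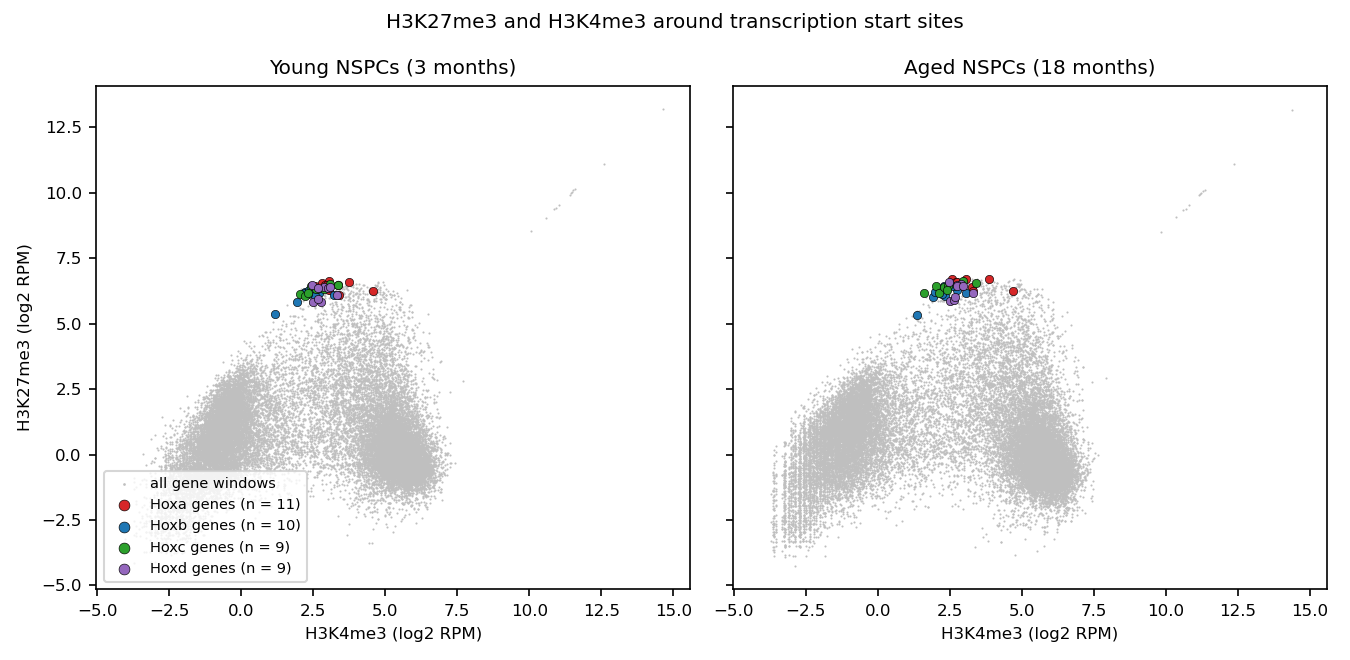
H3K27me3 against H3K4me3 (both log2 RPM) in the promoter window of every gene (grey, 25888 windows) and of the Hox genes (coloured by cluster), in young and aged NSPCs. The Hox windows sit together at high H3K27me3 (5.35 to 6.62 in young NSPCs) and, for 37 of 39, below the median H3K4me3 of all windows, with Hoxb1 at the lower left of the group.

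Most expressed neighbours carried the opposite marks. The 16 had a median H3K27me3 of 0.464 and H3K4me3 of 5.40 log2 RPM in young NSPCs, with H3K4me3 above 4 in 14 of them and H3K27me3 below 1 in 14. The windows of Smug1 and Atp5g2 had H3K4me3 of -0.46 and 2.68. Skap2 and Mtx2 carried both marks, with H3K27me3 of 4.61 and 2.84 and H3K4me3 of 5.35 and 5.12. The unexpressed Skap1 had H3K27me3 of 4.69 and H3K4me3 of 0.84. Evx1 and Evx2 carried 6.51 and 6.52 H3K27me3, as high as the Hox genes. Of 223 genes with a young H3K27me3 level above 6 and a row in the RNA table, 34 were Hox genes. Outside them, 99 of 189 (52.4%) had no read in any RNA library.

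No Hox window passed 1.5-fold between ages in either mark, against 1.61% of all windows for H3K27me3 and 0.224% for H3K4me3. Hox windows of H3K27me3 differed by -0.05 to 0.17 log2 units, with a median of 0.09, and 37 of 39 were higher in aged NSPCs, where 47.4% of all windows were higher. Among the 564 windows with a level above 5 at either age, the Hox windows included, however, 91.1% were higher in aged NSPCs and the median difference was 0.12. After quantile normalization between ages, 18 Hox windows were higher and 20 lower, with a median of -0.0027. That scaling gives both ages the same distribution of levels, so it cannot show a shift shared by the most marked windows. With Input subtracted, 22 Hox windows were higher and 17 lower, with a median of 0.06, against 0.07 in the class of 564. The Hox median difference in H3K27me3 was thus no larger than that of strongly marked windows as a class, and its size depended on the scaling.

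H3K4me3 of the Hox windows was lower in aged NSPCs in 26 of 39 windows and higher in 13, with a median difference of -0.06. Of all windows 61.9% were higher, with a median of 0.14. Among 167 other windows with a mean H3K4me3 of 2 to 3.5 and H3K27me3 above 5 at either age, a class set after seeing the data, 31.1% were higher and the median was -0.08, close to the Hox windows. After quantile normalization the Hox median was -0.08 and 31 windows were lower, against a median of 0.0022 and 50.9% higher over all windows. Hoxc4 and Hoxc6 had the lowest values (-0.43 and -0.40). With Input subtracted they differed by -0.08 and -0.34 on the log2 scale. The Input of Hoxc4 was 1.33 in young and 0.98 in aged NSPCs. Other start sites of these genes differed less, Hoxc4-002 by -0.14, Hoxc6-002 by -0.12 and Hoxc6-003 by -0.11 without Input subtraction. Over all 79 distinct Hox transcript windows none passed 1.5-fold, and the closest was Hoxd3-006 with -0.56 in H3K4me3. With Input subtracted, 1 Hox window passed in H3K27me3, Hoxc10, whose Input measured 1.57 in young and 1.12 in aged NSPCs (3.24% of all windows passed), and none in H3K4me3 (2.76%).

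**Figure D3:**
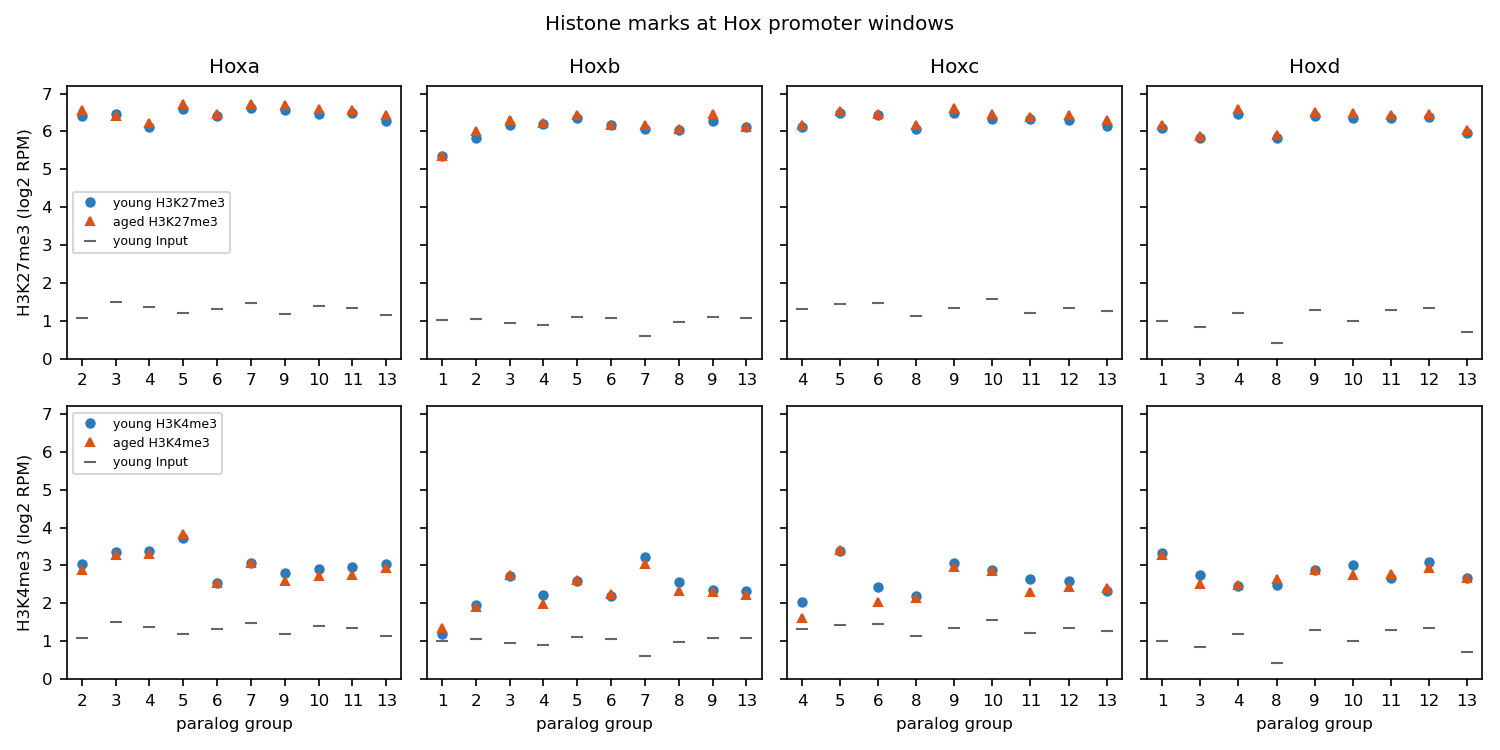
H3K27me3 (top) and H3K4me3 (bottom) in log2 RPM at Hox promoter windows by paralog group, in young (circles) and aged (triangles) NSPCs, with the young Input as dashes. Each point is the authors' 1 value per age. H3K27me3 stands between 5.34 and 6.72, young and aged points nearly coincide, and H3K4me3 of Hoxb1 lies next to its Input.

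5mC was low over most of the Hox clusters. oxBS libraries read 5mC alone, and calls were summed from the first to the last Hox gene. The Hoxa cluster (chr6:52155367-52260880, 105514 bases) had 7.68%, 6.76% and 8.31% 5mC in the young replicates and 6.62%, 7.97% and 8.78% in the aged. The Hoxc cluster (chr15:102921103-103036843, 115741 bases) had 5.17%, 5.20% and 6.99% in young and 5.36%, 5.91% and 6.60% in aged NSPCs. Young and aged values overlapped in both clusters.

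The Hoxd cluster (chr2:74668310-74765143, 96834 bases) had 8.07%, 8.35% and 9.19% 5mC in young and 7.51%, 9.33% and 9.59% in aged NSPCs, again overlapping. The Hoxb cluster (chr11:96194316-96368256, 173941 bases) had 11.9%, 11.8% and 11.8% in young and 12.6%, 12.01% and 12.8% in aged NSPCs, so that every aged library was above every young one. Each value rested on 1713 to 3964 calls. Genome-wide the same libraries had 70.5%, 70.8% and 71.8% in young and 70.8%, 71.3% and 71.9% in aged NSPCs.

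No difference between ages could be called for any cluster. The Hoxb difference was 0.65 percentage points (young 11.8% ± 0.026, aged 12.5% ± 0.42, SD, n = 3; exact two-sided permutation test p = 0.10, adjusted over the 4 clusters p = 0.40), and 0.1 is the smallest p that 3 against 3 libraries allow. It was higher in all 3 pairs of replicates (paired exact p = 0.25, the smallest possible). It was 0.37 points, with an exact permutation p = 0.30, both as a mean over sites and in promoter windows alone. With BS libraries, which read 5mC and 5hmC together, it was 1.14 points (exact permutation p = 0.10). With sites of at least 3 calls it was 1.08 points (exact permutation p = 0.70). Differences of the other clusters were 0.21 (Hoxa), 0.17 (Hoxc) and 0.28 points (Hoxd), each with an exact p = 0.80 and an adjusted p = 0.80, and they were smaller than the spread between replicates.

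5mC was higher on either side of the clusters, but low 5mC reached past most of their borders. Counted in whole 5-kb bins outside the cluster, 5mC stayed under 30% for 25 kb before Hoxb, 20 kb before Hoxd, 15 kb before Hoxc and after Hoxa, 10 kb after Hoxb and 5 kb before Hoxa, whereas the first bin after Hoxc had 31.3% and that after Hoxd 67.03%. In the 100 kb before the first Hox gene by coordinate, young 5mC was 68.5% ± 2.1 for Hoxa, 43.6% ± 2.3 for Hoxb, 54.9% ± 4.7 for Hoxc and 34.7% ± 2.6 for Hoxd. In the 100 kb after the last gene it was 32.4% ± 2.0, 57.7% ± 1.2, 42.8% ± 4.1 and 67.4% ± 2.0 in the same order (SD, n = 3). The low values of the flank after Hoxa and of the flank before Hoxd included Evx1 and Evx2, whose promoter windows had 3.72% and 5.83% 5mC over the 6 libraries. Bins of 5 kb inside the clusters had medians of 5.64% (Hoxc) to 7.03% (Hoxa).

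**Figure D4:**
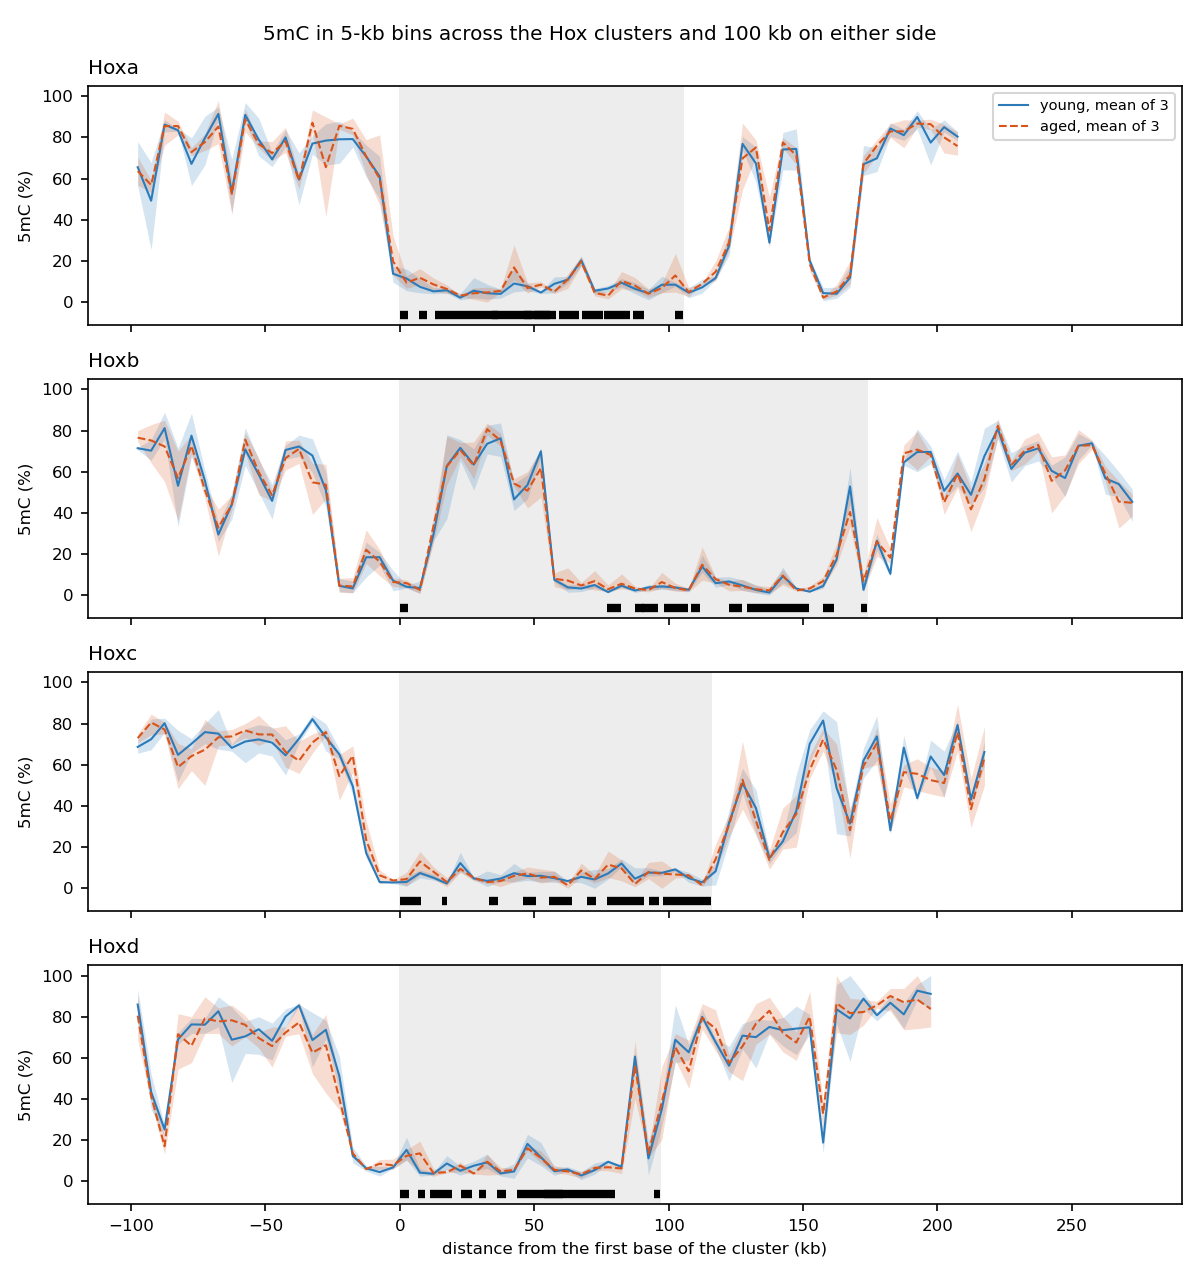
5mC (percent of oxBS calls) in 5-kb bins against distance from the first base of each cluster in kb, for young (solid) and aged (dashed) NSPCs, with the range of the 3 libraries shaded. The grey field is the cluster and black bars are Hox genes. 5mC is low across most of each cluster and high in most of the flanks, with a methylated stretch of 10 to 55 kb inside Hoxb and a single high bin near the end of Hoxd.

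A methylated stretch lay inside the Hoxb cluster. It ran from 10 to 55 kb after the cluster's first base, in the wide gap between Hoxb13 and Hoxb9 that holds no other Hox gene. With 1 further bin between Hoxb2 and Hoxb1, the 10 bins at 30% or more had 58.6% ± 1.5 5mC in young and 58.9% ± 2.4 in aged NSPCs. The other 24 bins of Hoxb had 4.19% ± 0.61 and 4.83% ± 0.08, with the young libraries at 3.93%, 3.74% and 4.89% and the aged at 4.79%, 4.93% and 4.78%, so that ages overlapped. The 9 bins of the stretch were poorer in CpGs (11.1 per kb against 24.98 in the other 24 bins) and richer in soft-masked repeats (46.04% against 16.2%). These bins were picked by their level, so no test was made on them. In Hoxd a single bin, 85 to 90 kb from the first base and between Hoxd3 and Hoxd1, had 60.6% ± 1.5 in young and 56.3% ± 14.4 in aged NSPCs.

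Low 5mC was not confined to CpG-dense DNA. In 1-kb bins with 5 to 9 CpGs, Hox clusters had 22.3% ± 0.48 5mC in young and 24.3% ± 2.1 in aged NSPCs, against 77.3% ± 0.77 and 77.5% ± 0.76 elsewhere on chromosomes 1 to 19 and X. In bins with 20 to 39 CpGs the values were 7.72% ± 1.3 and 64.0% ± 0.80 in young NSPCs. In bins with 40 or more CpGs they were 3.43% ± 0.23 and 8.68% ± 0.22, so that the gap narrowed where the genome itself was little methylated.

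All 39 Hox promoter windows were covered well enough to be tested for 5mC, with at least 26 calls in every library. Their median was 5.03% in young and 5.26% in aged NSPCs, against 34.8% and 35.6% over the 23775 windows tested. Hox windows of under 150 CpGs had a median of 6.15% (11 windows), against 50.8% of all windows of that class. Those of 150 or more CpGs had 4.92% (28 windows), against 14.5%. CpG number was not matched within these classes. Hoxd1 had the highest mean over the 6 libraries, 13.4%, with 8.72%, 19.01% and 12.2% in young and 15.8%, 8.85% and 15.8% in aged NSPCs. Hoxd12, also among the 3 highest, had 7.18% ± 0.94 and 13.3% ± 7.1. Both overlapped between ages.

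Hoxb9, Hoxb3 and Hoxb7 had the lowest 5mC. Hoxb9 had 1.40% ± 0.53 in young and 2.88% ± 1.7 in aged NSPCs, Hoxb3 2.05% ± 0.74 and 2.34% ± 0.32, and Hoxb7 2.56% ± 1.0 and 2.24% ± 0.59 (SD, n = 3). Thus all 3 lay in Hoxb, the cluster with the highest total, and away from its methylated stretch. Across the 39 windows CpG number and mean 5mC had a Spearman correlation of -0.48 (Pearson -0.34), a description over windows of the same libraries.

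No Hox window was called in 5mC between ages, and neither was any of the 23775 windows (0%, quasi-binomial model, adjusted p below 0.05 and a difference of 10 points). A chi-squared test on pooled calls, which ignores the spread between libraries, called 797 windows (3.35%) and no Hox window, with 6 of the 39 Hox windows at an unadjusted p below 0.05, as were 18% of all windows. At Hox windows so little methylated, a fall of 10 points was possible only for the few that started at 10% or more. Of the 39, 20 were higher in aged NSPCs, with a median difference of 0.0049 points, against 0.30 over all windows tested. Hoxa10, an abdominal-type gene of group 10, was the only one with an unadjusted p below 0.05, as were 5.38% of all windows. It had 9.38%, 6.19% and 7.78% in young and 3.10%, 2.21% and 5.84% in aged NSPCs, with every aged library below every young one, as in 4.5% of all windows (quasi-binomial p = 0.027, adjusted p = 0.92). In Hoxc8 and Hoxc12 every aged library was above every young one, as in 5.93% of all windows. Hoxc8 had 6.52%, 1.99% and 6.19% in young and 6.74%, 9.41% and 7.69% in aged NSPCs (quasi-binomial p = 0.21, adjusted p = 0.97). Hoxc12 had 2.65%, 2.73% and 2.31% in young and 4.57%, 4.59% and 4.76% in aged NSPCs (quasi-binomial p = 0.12, adjusted p = 0.96). These 3 of 39 windows separated the ages at about the share of all windows.

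5hmC, taken as BS minus oxBS of the same replicate, was near 0 in all clusters. Means ranged from -0.05 (Hoxa) to 0.42 points (Hoxd) in young and from -0.21 (Hoxc) to 0.79 points (Hoxd) in aged NSPCs. Aged minus young differences were 0.26 (Hoxa), 0.50 (Hoxb), -0.31 (Hoxc) and 0.38 points (Hoxd), with exact permutation p of 0.70, 0.30, 0.20 and 0.50, and adjusted p of 0.60 to 0.70. Values below 0, which cannot be 5hmC, occurred in single libraries of 3 of the clusters.

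**Figure D5:**
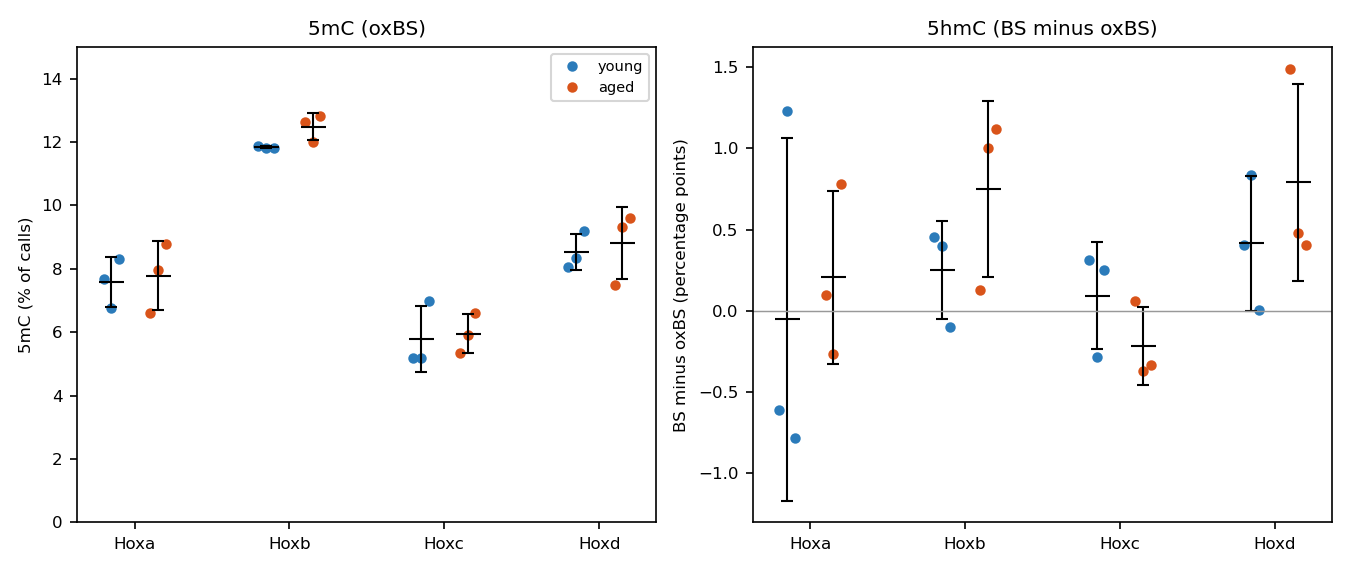
5mC (left, percent of oxBS calls) and 5hmC (right, BS minus oxBS in percentage points) of each Hox cluster in single libraries (points), with mean and SD of 3 (bars). In 5mC the aged libraries lie above the young ones in Hoxb alone, and 5hmC scatters around 0, from -0.779 to 1.49 points.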

How the data were processed

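Of 38 libraries, RNA (8), ChIP with Input (18), BS (6) and oxBS (6), all were grouped by their labels. The deposited RNA and ChIP values are log2 RPM that the authors made after mapping to GRCm38, RNA per library and ChIP as 1 value per age over 5001 bases at each transcript start, with no separate replicates. Methylation files hold deposited counts of methylated and unmethylated calls per cytosine. The submitters' processing notes name STAR 2.3.0, Bowtie2 2.2.5, Bismark 0.12.5 and Trim Galore. Authors' comparison columns were not used.

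The members and gene lists were chosen with earlier results of these data known. RNA reads were recovered from log2 RPM, in which a gene without reads is set at 0.9 read (every low value was within 0.02 of a whole read, for libraries of 16952486 to 41053972 reads). Genes of a mean of at least -2 log2 RPM were fitted with limma 3.58.1 (R 4.3.3), with edgeR 4.0.16 and DESeq2 1.42.0 as alternatives, and p-values were adjusted over all genes by Benjamini-Hochberg. ChIP used 1 window per gene, that of the lowest-numbered transcript, and a 1.5-fold rule at a log2 RPM above 1 in either age. Calls were summed over clusters (exact permutation tests) and over promoter windows with at least 10 calls in every library (quasi-binomial model). A site had 1.20 to 1.32 calls on average in oxBS libraries, so single sites were not compared. On simulated data, limma recovered 87% of 200 genes changed 2-fold among 14858 genes, with 12 false calls. The quasi-binomial model recovered 99% of 200 windows changed by 30 points among 23775, also with 12 false calls. The simulated RNA held no deviation shared by same-numbered libraries and the simulated 5mC no spread between libraries. These shares may thus be higher than in the real data, and they do not cover 5mC changes as small as those of the Hox windows.

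Named genes were those with reads, the 3 highest and lowest windows of each measure, windows past a threshold, and the 2 largest and smallest differences of each list; Ezh2, markers, transcript windows, Hoxc8, Hoxc12 and single neighbours were added after their values were seen. Replicates were derivations made on different days, and same-numbered libraries deviated together (correlations of 0.66, 0.18 and 0.72 in RNA over 14858 genes, 0.15 to 0.21 in oxBS and 0.19 to 0.33 in BS over 1-Mb bins). Alternatives covered normalization, filters, tools, pairing and leaving out each library. A few genes that this rule names are not reported here.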

Additional observations from a re-analysis of the deposited data

How the results depend on the processing

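No Hox gene entered the RNA fits except without a filter on low values, where all 39 did and 0 were called. That count of 0 could not have been otherwise informative, as the values were set almost wholly by the floor and library size. The counts of 0 under the other RNA alternatives (0 to 0 when leaving out a library) likewise say nothing about stability. No Hox window was called in 5mC under any alternative run, leaving out each library (0 to 0) and the replicate block (0) included. The count of 7 Hox genes with reads became 0 when at least 10 reads in a library were asked for. Subtracting Input moved the H3K27me3 count from 0 to 1 (Hoxc10). Pairing by replicate block cannot move a difference of means, so the 5mC differences of 0.21 (Hoxa), 0.65 (Hoxb), 0.17 (Hoxc) and 0.28 points (Hoxd) and the 5hmC differences of 0.26, 0.50, -0.31 and 0.38 are the same by construction. Their paired exact p were 0.25 to 0.75, and 3 pairs cannot go below 0.25. Over all genes the block moved the RNA calls from 0 to 74, Gsx1 among them, but it tested no Hox gene.

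Signs of small differences turned. With sites of at least 3 calls (27 to 154 sites per library and cluster) 5mC differed by -0.43 (Hoxa) and -5.96 points (Hoxd), with promoter windows alone by -0.31 (Hoxa), and with BS libraries by -0.14 (Hoxc). The 5mC difference of Hoxb was 0.37 points as a mean over sites and in promoter windows alone (exact permutation p = 0.30 in both), 1.08 with sites of at least 3 calls (p = 0.70) and 1.14 with BS libraries (p = 0.10). The 5hmC difference of Hoxb was -0.28 in promoter windows alone. The cause was not tested. Leaving out 1 library gave 5mC differences of -0.29 to 0.79 (Hoxa), 0.48 to 0.89 (Hoxb), -0.15 to 0.77 (Hoxc) and -0.11 to 0.93 points (Hoxd). The 5mC difference was below 0 without aged replicate 3 in Hoxa (-0.29), Hoxc (-0.15) and Hoxd (-0.11), without young replicate 2 in Hoxa (-0.20) and Hoxc (-0.13), and without young replicate 1 in Hoxc (-0.14). For 5hmC it gave -0.10 to 0.90 (Hoxa), 0.31 to 0.81 (Hoxb), -0.50 to -0.20 (Hoxc) and 0.03 to 0.59 points (Hoxd), below 0 in Hoxa without young replicate 1 (-0.02), young replicate 3 (-0.10) or aged replicate 3 (-0.03).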
